A study of Mus musculus with 6 samples.

Results

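The 10 genes described here encode proteins that endothelial cells, the cells lining blood vessels, place at their junctions, display on their surface or secrete: *Pecam1*, *Cdh5*, *Cldn5*, *Esam*, *Emcn*, *Ecscr*, *Tie1*, *Eng*, *Egfl7* and *Vwf*. They were chosen by name, and each matched 1 row of the gene table, which lists 19445 loci. All 10 passed the filter on low values and were tested among 11692 loci. The libraries were RNA-Seq of inguinal white adipose tissue (iWAT), a subcutaneous fat depot, from 3 *Hlx* transgenic mice (TG) and 3 wild-type littermates (WT), all 12 weeks old and labelled male. In TG mice the cDNA of *Hlx*, a homeobox transcription factor, was driven by the *aP2* (*Fabp4*) promoter, and lines founded in C57BL/6 × SJL embryos were backcrossed to C57BL/6. This promoter is fat-selective, *Fabp4* itself is also made by capillary endothelial cells and macrophages, and RNA came from the whole depot, so the cells that held the transgene's RNA were not parted. No treatment was given to either group.

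Endothelial cells are held together by adherens junctions, in which VE-cadherin (*Cdh5*) binds its like on the next cell, and by tight junctions, in which claudin-5 (*Cldn5*) seals the gap against small solutes. PECAM-1, also called CD31, lies along the same border and is the usual stain for vessels. Fat is crossed by a dense capillary bed that brings oxygen and lipid to the adipocytes and carries heat and fatty acids away, and brown fat holds more of it than white fat. The comparison of TG with WT asks how the RNA of these endothelial proteins differed in iWAT carrying the *Hlx* transgene.

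The 10 genes did not move as 1 block. *Cldn5* fell to 0.571 of its WT level and *Ecscr*, a surface protein of endothelial chemotaxis, to 0.768, while *Emcn*, the sialomucin of capillaries and veins, rose 1.44-fold. The other 7, *Pecam1* and *Cdh5* among them, did not pass the threshold. With 5 genes above and 5 below their WT level, the median log2 fold change of the 10 was -0.00, beside -0.01 over all tested loci. The summed FPKM of the 10 genes (a read density scaled to the length of the transcript and to the mapped reads of the library, so that levels of different genes can be set side by side) was 215, 237 and 240 in the TG mice and 233, 226 and 232 in the WT mice. The summed level thus overlapped between the genotypes, with the lowest sum in TG replicate 1.

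Calls rest on limma, fitted to log2(FPKM + 1) over all 11692 loci, with an adjusted p (Benjamini-Hochberg) under 0.05. By that rule 1 of the 10 genes was higher and 2 were lower in TG, where 11.6% of all loci were higher and 7.03% lower. In either direction this is 30% of the genes beside 18.6% of all loci, and with 10 genes the 3 calls are no result about the set. The 3 TG and 3 WT values did not overlap for 6 of the 10 genes, 3 in each direction, and the same held for 42.9% of all loci (22.8% with TG higher, 20.1% with TG lower). Their median absolute log2 fold change was 0.23, beside 0.21 over all loci. With 3 mice against 3, the exact two-sided permutation test has 20 arrangements and cannot go below p = 0.1, the value it gave for each of these 6 genes.

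**Figure D1:**
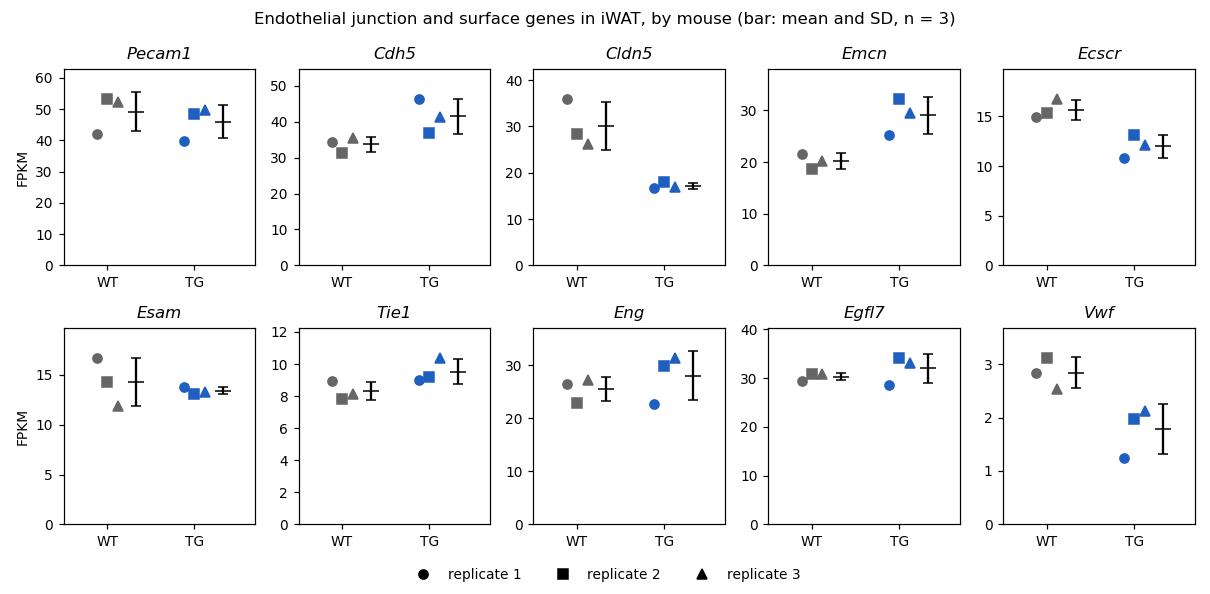
FPKM (vertical axes, each from 0) of the 10 genes in the 3 WT mice (grey) and the 3 TG mice (blue), with marker shape giving the replicate and the bar the mean and SD (n = 3). *Cldn5* sits between 16.8 and 17.9 in TG against 26.1 to 36 in WT, *Emcn* sits above its WT range in every TG mouse, and the *Pecam1* values of the genotypes overlap.

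The labels were checked first. *Hlx* stood at 79.6 to 110 FPKM in TG and at 6.88 to 8.14 in WT (log2 fold change 3.51, limma adjusted p = 0.000106), as the genotype labels say. All 6 libraries held *Xist*, the RNA of the inactive X chromosome, at 20.2 to 33.6 FPKM, and 28 of 28 Y-linked loci were listed at 0 in every library, so the label male goes against the data in both groups alike. Total depth is unknown. The step of the lowest FPKM values put the relative depth of the libraries between 0.692 (TG replicate 3) and 1.41 (WT replicate 2) of WT replicate 3, so low values were less precise in TG replicates 1 and 3.

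Markers of other cell types were compared too. Over all 11692 tested loci 7.03% were called lower in TG, and 6029 had a log2 fold change below 0. Of 9 macrophage markers, 9 had a log2 fold change below 0, 4 of them called lower (44.4%), and none was at 0 in every library. Their summed FPKM was 613 to 901 in TG against 1110 to 1520 in WT. A large part of that gap is *Lyz2*, at 308 in TG and 653 in WT on average. The 7 fibroblast markers summed to 1130 to 1430 in TG and 1700 to 1960 in WT, with 1 called lower (14.3%) and 6 of 7 below 0. A large part of that gap is the called gene, *Dpt*, at 202 in TG and 518 in WT on average. The 8 lymphocyte markers with a row summed to 235 to 330 in TG and 306 to 434 in WT, with 8 of 8 below 0 and 1 called lower (12.5%). In lists of 7 or 8 genes, 1 call is no result about the list. Skeletal muscle markers, 7 of 8 with a row and none called, summed to 81.5 to 618 in TG and 5.22 to 121 in WT, with the highest sum in TG replicate 2. Of 7 adipocyte markers with a row, 1 was called, *Adipoq*, adiponectin, which fell from 2480 FPKM in WT to 1360 in TG (log2 fold change -0.85, limma adjusted p = 0.0172). Their sum, 28300 to 33600 in TG and 24000 to 29700 in WT, is mostly *Fabp4* (26600 in TG and 21900 in WT on average), the gene whose promoter drives the transgene, and so says little of the other 6. The part of these cell types in the results below was not tested, and in whole tissue fewer cells of a type and less RNA per cell cannot be told apart.

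The stretches before the start of *Cldn5* and *Emcn* are shown because these are the tight junction gene that fell and the surface gene that rose. RefSeq promoter entries (GRCm38.p6, the patch release of the mm10 build of the files) matched 5 of the 10 genes: *Cldn5*, *Emcn*, *Tie1*, *Eng* and *Egfl7*. Each line holds the 250 bases before the annotated start, 5′ to 3′ on the + strand, at chr16:18776597-18776846 for *Cldn5* and chr3:137340828-137341077 for *Emcn*.
*Cldn5*: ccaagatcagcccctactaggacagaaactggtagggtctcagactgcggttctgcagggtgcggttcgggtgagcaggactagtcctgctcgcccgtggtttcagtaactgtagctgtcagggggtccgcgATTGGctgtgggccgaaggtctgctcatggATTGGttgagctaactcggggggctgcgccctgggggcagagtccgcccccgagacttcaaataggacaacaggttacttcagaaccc
*Emcn*: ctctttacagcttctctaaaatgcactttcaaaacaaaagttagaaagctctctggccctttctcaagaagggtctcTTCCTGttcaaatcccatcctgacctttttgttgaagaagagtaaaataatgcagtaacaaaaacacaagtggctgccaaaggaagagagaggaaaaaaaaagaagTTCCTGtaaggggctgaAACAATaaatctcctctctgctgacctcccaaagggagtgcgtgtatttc
Capitals mark the matches to CAGGAA and CCGGAA, the core letters of ETS factors, to AACAAT, those of SOX factors, and to CCAAT, each searched on both strands, where TTCCTG is the reverse complement of CAGGAA and ATTGG that of CCAAT. The ETS letters, CAGGAA and CCGGAA, end alike, and no matches in these stretches overlapped. The *Cldn5* stretch, with a GC content of 59.6%, held CCAAT in reverse 118 and 88 bases before the start and no match to the ETS or SOX letters. The *Emcn* stretch, with 40.8%, held CAGGAA in reverse at 173 and 67 bases and AACAAT at 50. Such letters are common: of 32851 promoters of the same length 33.8% held CCAAT, 25.7% CAGGAA, 12% CCGGAA and 9.42% AACAAT. Over the 10641 promoters of tested genes the shares were 34.8%, 23.2%, 20.5% and 5.16%. The letters of GATA factors, AGATAA (in 9.99% of all promoters and 5.91% of those of tested genes), of forkhead factors, TGTTTA (12% and 7.74%), of Krüppel-like factors, CCACCC (28.1% and 33.6%), and of the TATA box, TATAAA (12.4% and 6.7%), were searched in the same way and matched in neither stretch. The letters were chosen after the sequences were seen, and a match is a description of the sequence, not a site.

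Among the junction genes, *Pecam1* and *Cdh5* had the highest levels in both genotypes. *Pecam1* (chr11:106654158-106750541) measured 39.9, 48.5 and 49.7 FPKM in TG and 42, 53.4 and 52.3 FPKM in WT. The lowest value in each genotype came from replicate 1, the other 4 mice lay between 48.5 and 53.4, and the groups overlapped. The log2 fold change was -0.09 (SE 0.13, limma adjusted p = 0.632), and its 95% interval corresponds to a TG level between 0.76 and 1.16 of WT on the log2(FPKM + 1) scale. A rise of *Pecam1* RNA beyond 1.16-fold thus lay outside the interval in these 6 libraries. Without TG replicate 1 the log2 fold change was 0.00. The interval is about RNA of the whole depot and not about stained protein or the number of vessels. From CD31 staining and lectin labelling, the paper reports extensive capillaries in the iWAT of TG mice.

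*Cdh5* (chr8:104101625-104144502), the adherens junction cadherin found in hardly any other cell type, measured 46.4, 36.7 and 41.2 FPKM in TG and 34.4, 31.3 and 35.4 FPKM in WT. Every TG mouse was above every WT mouse, by 1.23-fold on the means of 41.5 ± 4.86 and 33.7 ± 2.13 FPKM (SD, n = 3). The log2 fold change of 0.29 (SE 0.10) had a 95% interval of 0.04 to 0.53, but the limma adjusted p was 0.0987 and the difference was not called. The cytoplasmic partners that tie this cadherin to actin are made by many cell types. Of 10 junction partners shared with other cells, the membrane proteins encoded by *F11r* and *Ocln* included, 8 were tested, 1 rose and none fell. That is 12.5%, beside 11.6% of all loci. It was *Ctnna1*, α-catenin, at 136 FPKM in TG and 106 in WT (log2 fold change 0.36, limma adjusted p = 0.0448). The partners known to bind VE-cadherin itself, picked after their values were seen, had log2 fold changes of 0.05 (*Ctnnb1*, β-catenin), 0.01 (*Ctnnd1*, p120-catenin) and -0.46 (*Jup*, plakoglobin, limma adjusted p = 0.0883), and the *Jup* values, 14.2 to 22.2 FPKM in TG and 22.6 to 24.3 in WT, did not overlap.

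*Cldn5* (chr16:18776847-18778262), a gene of 1 transcript in GENCODE, had the largest change of the 10. It measured 16.8, 17.9 and 16.9 FPKM in TG and 36, 28.3 and 26.1 FPKM in WT. The TG mice lay close together, at 17.2 ± 0.642 FPKM (SD, n = 3), and all were below the lowest WT mouse, with the WT mice spread more widely at 30.1 ± 5.18 FPKM. *Cldn5* fell by 0.76 on the log2 scale (SE 0.12, 95% interval -1.05 to -0.47, limma adjusted p = 0.00772). The call held in 14 of 14 alternative fits, each of the 6 leave-one-out fits included, with adjusted p between 0.00427 and 0.0335. Leaving out WT replicate 1, the highest mouse, is 1 of these.

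*Esam* (chr9:37528089-37538710), an immunoglobulin-family adhesion molecule of endothelial tight junctions that platelets also carry, measured 13.8, 13.1 and 13.3 FPKM in TG and 16.7, 14.3 and 11.9 FPKM in WT. The TG values lay inside the WT range. Its log2 fold change of -0.08 (SE 0.12, limma adjusted p = 0.667) has a 95% interval from -0.36 to 0.20, which does not reach the fold change measured for *Cldn5*. Of this tight junction pair the claudin was called lower and the adhesion molecule was not, and the difference between their fold changes was not tested on its own.

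*Emcn* (chr3:137341078-137431069), endomucin, a heavily glycosylated surface protein of capillary and venous endothelium that keeps leukocytes from attaching, measured 25.3, 32.3 and 29.6 FPKM in TG and 21.6, 18.6 and 20.3 FPKM in WT. Every TG mouse was above every WT mouse, at 29.1 ± 3.54 against 20.2 ± 1.53 FPKM (SD, n = 3). *Emcn* rose by 0.50 on the log2 scale (SE 0.11, 95% interval 0.24 to 0.76, limma adjusted p = 0.0222). The call was lost without TG replicate 3 (adjusted p = 0.0751), without WT replicate 2 (0.0724) and without WT replicate 3 (0.0672), with log2 fold changes of 0.49, 0.45 and 0.51 in those limma fits.

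*Ecscr*, a small transmembrane protein that takes part in endothelial migration, lies on chr18 and measured 10.8, 13.1 and 12.1 FPKM in TG and 14.9, 15.3 and 16.8 FPKM in WT. All TG mice were below all WT mice, and *Ecscr* fell by 0.36 on the log2 scale (SE 0.09, 95% interval -0.58 to -0.14, limma adjusted p = 0.039). Of the 6 fits that leave out a mouse, only the one without TG replicate 2 kept the call (adjusted p = 0.0364). Without TG replicate 1 the limma adjusted p was 0.092, without TG replicate 3 it was 0.1, and without WT replicates 1, 2 and 3 it was 0.0678, 0.0912 and 0.121. The gene shares 3.54% of its exonic bases with *1700066B19Rik* on the opposite strand, and the library kit does not mark strand.

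**Figure D2:**
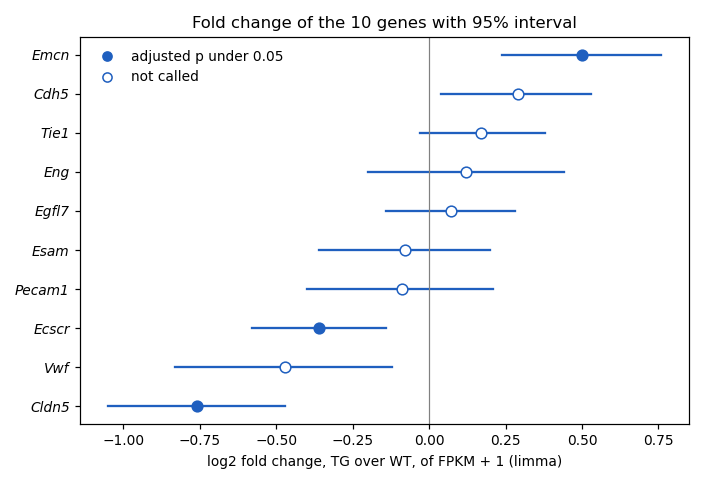
log2 fold change of TG over WT on the log2(FPKM + 1) scale (horizontal axis) for each of the 10 genes, as the limma estimate (points, filled where the adjusted p is under 0.05) with its 95% interval (lines). The intervals of *Cldn5*, *Ecscr* and *Vwf* lie below 0, those of *Emcn* and *Cdh5* above 0, and *Vwf* and *Cdh5* are not called after adjustment.

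The receptor genes showed smaller differences. *Tie1* (chr4:118471191-118489849), an orphan receptor kinase that works with the angiopoietin receptor Tie2, measured 8.99, 9.17 and 10.4 FPKM in TG and 8.93, 7.85 and 8.16 FPKM in WT. The groups did not overlap, but the lowest TG mouse and the highest WT mouse were 8.99 and 8.93, and the log2 fold change of 0.17 (SE 0.09, limma adjusted p = 0.2) was not called. *Tek*, which encodes Tie2 and was named here after its values were seen, had a log2 fold change of -0.11 (limma adjusted p = 0.429).

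*Eng* (chr2:32646509-32703930), endoglin, a co-receptor for BMP9 and TGF-β in dividing endothelium that macrophages also make, measured 22.7, 29.9 and 31.4 FPKM in TG and 26.5, 22.9 and 27.1 FPKM in WT. TG replicate 1 lay below all 3 WT mice and the other TG mice above them, so the groups overlapped (log2 fold change 0.12, SE 0.14, limma adjusted p = 0.562). *Acvrl1*, the kinase receptor that endoglin serves, likewise named after its values were seen, had a log2 fold change of -0.17 (limma adjusted p = 0.228). The interval given for *Eng* is the locus of the gene table, which runs past the end of the gene in GENCODE, 32682669. Within the GENCODE gene, *Eng* shares 1.51% of its exonic bases with *Fpgs* on the opposite strand. The level of *Fpgs* was 6.82 to 8 FPKM in TG and 6.45 to 8.58 in WT.

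Neither of the secreted proteins' genes was called. *Egfl7* (chr2:26581000-26604256), which is laid down around sprouting vessels and holds the endothelial miRNA miR-126 within its transcript, measured 28.6, 34.2 and 33.2 FPKM in TG and 29.4, 30.8 and 30.8 FPKM in WT. The groups overlapped through TG replicate 1, and the log2 fold change was 0.07 (SE 0.09, 95% interval -0.14 to 0.28, limma adjusted p = 0.594). The mature miR-126a-3p, shown because it comes from the same transcript and is itself a regulator of vessel integrity, lies at chr2:26591402-26591423 on the + strand (RefSeq, GRCm38.p6), with its seed, bases 2 to 8, in capitals.
miR-126a-3p: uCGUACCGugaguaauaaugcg
The mature miRNA was not measured in these libraries. The interval given for *Egfl7* is the locus of the gene table, which runs past the end of the gene in GENCODE, 26593120. Genes beyond that end were not counted. Within the GENCODE gene, other annotated genes cover 11.2% of the exonic bases of *Egfl7*. Among them is *Agpat2*, an enzyme of triglyceride synthesis, which shares 1.79% on the opposite strand. *Agpat2* stood at 668 to 833 FPKM in TG and 364 to 608 in WT (log2 fold change 0.60, limma adjusted p = 0.0875). Its part in the *Egfl7* level was not tested.

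*Vwf* (chr6:125552963-125686677), von Willebrand factor, a clotting protein stored by the endothelium of larger vessels and by platelets, had the lowest level. It measured 1.25, 1.98 and 2.13 FPKM in TG and 2.84, 3.12 and 2.54 FPKM in WT. Every TG mouse was below every WT mouse, with means of 1.79 ± 0.469 and 2.83 ± 0.292 FPKM (SD, n = 3), a ratio of 0.631. The log2 fold change on the log2(FPKM + 1) scale, which understates changes at such levels, was -0.47 (SE 0.15, 95% interval -0.83 to -0.12), and with limma adjusted p = 0.0696 it was not called. With a pseudocount of 0.1 it was -0.66. Of 8 platelet and megakaryocyte markers, 7 had a row, 2 reached the filter, none was called and 1 (*Gp6*) was listed at 0 in all libraries. Their sum, 42.5 to 52.5 FPKM in TG and 50.9 to 64 in WT, is mostly *Pf4* (40.9 in TG and 52.3 in WT on average). The sum says little of the other markers, 2 of which are named here after their values were seen. *Itga2b* overlapped between the genotypes (means 5.24 in TG and 6.33 in WT). *Gp1ba*, under the filter, was higher in every TG mouse than in any WT mouse (means 0.67 and 0.371). The part of platelets in the *Vwf* level was not tested.

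The order of the levels differed between the genotypes mainly through *Cldn5* and *Emcn*. In WT the order by mean FPKM was *Pecam1* (49.2), *Cdh5* (33.7), *Egfl7* (30.3), *Cldn5* (30.1), *Eng* (25.5), *Emcn* (20.2), *Ecscr* (15.7), *Esam* (14.3), *Tie1* (8.31) and *Vwf* (2.83). Among neighbours in that order, the ranges of *Egfl7* and *Cldn5*, of *Cldn5* and *Eng*, and of *Ecscr* and *Esam* overlapped. In TG the order was *Pecam1* (46), *Cdh5* (41.5), *Egfl7* (32), *Emcn* (29.1), *Eng* (28), *Cldn5* (17.2), *Esam* (13.4), *Ecscr* (12), *Tie1* (9.51) and *Vwf* (1.79). There the ranges of *Pecam1* and *Cdh5*, of *Egfl7* and *Emcn*, of *Emcn* and *Eng*, and of *Esam* and *Ecscr* overlapped. *Emcn* was below *Cldn5* in all 3 WT mice and above it in all 3 TG mice.

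Setting each gene against the other 9 in the same library takes out a level that all 10 share there. On this scale, log2(FPKM + 1) of the gene less the mean of the other 9, *Cldn5* was -0.05 ± 0.10 in TG and 0.73 ± 0.22 in WT (SD, n = 3), a difference of -0.78. For *Emcn* the values were 0.74 ± 0.11 and 0.12 ± 0.08, a difference of 0.62. The differences were -0.46 for *Vwf*, 0.39 for *Cdh5*, -0.33 for *Ecscr*, 0.26 for *Tie1* and 0.15 for *Egfl7*. For each of these 7 genes the 3 TG and 3 WT ratios did not overlap, though *Egfl7* overlapped on FPKM itself. Such a ratio has no share over all loci to be set beside it, and on FPKM 42.9% of all loci did not overlap. The count is thus no result about the set. Each of the 7 ratios reached the smallest exact permutation p, 0.1, which is 0.143 after Benjamini-Hochberg adjustment over the 10 ratios. The ratios of *Eng* (0.20), *Pecam1* (-0.04) and *Esam* (-0.02) overlapped between the genotypes, with exact permutation p of 0.3, 0.9 and 0.9. With 20 other endothelial receptors as the reference instead, the differences were -0.85 for *Cldn5*, -0.56 for *Vwf*, -0.44 for *Ecscr*, 0.42 for *Emcn* and 0.20 for *Cdh5*. On that reference *Tie1* (0.09), *Eng* (0.03) and *Egfl7* (-0.01) were close to 0, and *Pecam1* and *Esam* were at -0.18 and -0.16. A ratio of this kind shows unequal change between the genes and not which of them changed, and the 10 ratios are not independent, since each gene enters the reference of the others.

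**Figure D3:**
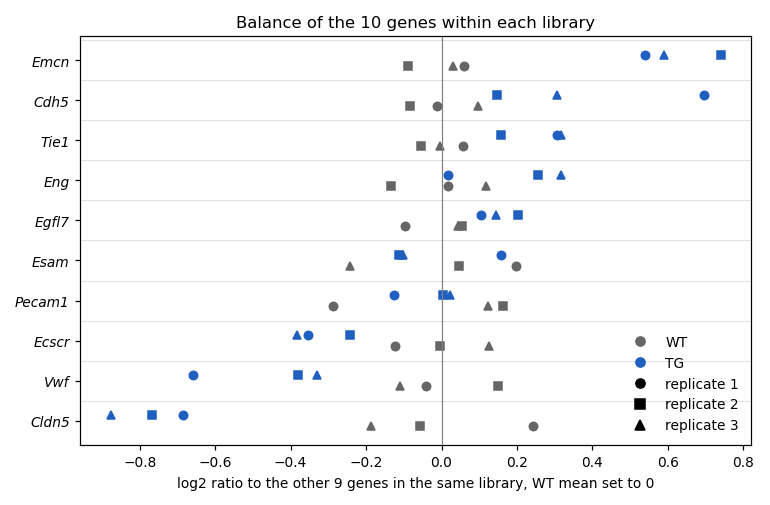
log2 ratio of each gene to the mean of the other 9 in the same library (horizontal axis, with the WT mean of each gene set to 0), 1 point per mouse, WT in grey and TG in blue, marker shape giving the replicate. The TG points of *Emcn*, *Cdh5*, *Tie1* and *Egfl7* lie to the right of all WT points, those of *Cldn5*, *Vwf* and *Ecscr* to the left, and those of *Eng*, *Esam* and *Pecam1* overlap.

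Pairs of genes show the same inequality within single mice. The level of *Vwf* relative to *Emcn*, a protein of larger vessels against one of capillaries and veins, was -3.54, -3.48 and -3.29 on the log2(FPKM + 1) scale in TG and -2.56, -2.25 and -2.59 in WT, a difference of -0.97 (exact permutation p = 0.1). The pair of *Vwf* and *Emcn* was chosen with earlier results of these data known, so its p is no independent support. The 2 ratios that follow were chosen after the values were seen. All of these ratios are a description. *Cldn5* per unit of *Cdh5*, tight junction against adherens junction, was 0.362, 0.488 and 0.409 in TG and 1.05, 0.902 and 0.737 in WT. *Emcn* per unit of *Pecam1* was 0.633, 0.666 and 0.595 in TG and 0.514, 0.348 and 0.389 in WT. Neither ratio overlapped between the genotypes.

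Across the 6 libraries, which share their genotype groups and so do not give independent points, the genes did not all vary together. The highest and lowest values largely restate the genotype differences above. Pearson's r of log2(FPKM + 1) was 0.86 between *Ecscr* and *Vwf*, 0.81 between *Cldn5* and *Vwf* and 0.80 between *Cldn5* and *Ecscr*, the 3 genes with lower TG values in every mouse. It was 0.82 between *Emcn* and *Tie1* and 0.80 between *Eng* and *Egfl7*. The lowest values were -0.94 for *Cdh5* and *Vwf*, -0.87 for *Cdh5* and *Ecscr* and -0.78 for *Cldn5* with both *Cdh5* and *Emcn*. Other pairs lay between, such as *Cdh5* with *Eng* (0.05), *Cdh5* with *Egfl7* (-0.14) and *Egfl7* with *Vwf* (0.10). *Pecam1* and *Cldn5* had an r of 0.08.

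Of 79 other genes listed as endothelial, in 7 lists, 68 were tested. Of these, 4 were called higher and 6 lower, which is 14.7% beside 18.6% of all loci, and their median log2 fold change was -0.20. Of the 68, *Mmrn1* alone passed the filter through a single genotype. Groups did not overlap for 35 of the 68 (51.5% beside 42.9% of all loci), 11 higher and 24 lower. The 10 junction and surface genes thus had a median nearer 0 than these lists together, a difference that was not tested. Several listed genes, *Mcam* and *Lyl1* below among them, are also made by other cells. The part of those cells in the values of the lists was not tested.

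Among 20 receptors and signalling proteins, all tested, 3 rose (15%, near the 11.6% of all loci), none fell and the median was 0.07. *Podxl*, podocalyxin, a sialomucin of the luminal surface, stood at 19.7 FPKM in TG and 9.75 in WT (log2 fold change 0.93, limma adjusted p = 0.0175). *Cd93*, a lectin-type receptor of angiogenic endothelium, stood at 11.2 and 7.14 (0.58, adjusted p = 0.02), and *Kdr*, the main VEGF receptor, at 18.4 and 14.3 (0.35, adjusted p = 0.0329). Of 12 other adhesion genes, 9 were tested, with a median of -0.25. None rose and 1 fell (11.1%, beside 7.03% of all loci): *Mcam*, an adhesion molecule that both endothelium and pericytes carry, at 53.7 FPKM in TG and 91.7 in WT (-0.76, limma adjusted p = 0.00275).

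Of 12 transcription factors, 11 were tested, 1 rose, 1 fell (9.09% each way, beside 11.6% and 7.03% of all loci) and the median was -0.15. *Bcl6b*, a repressor enriched in endothelium, stood at 5.73 FPKM in TG and 3.15 in WT (log2 fold change 0.69, limma adjusted p = 0.00885), and *Lyl1*, a helix-loop-helix factor that blood cells also make, at 9.03 and 15.4 (-0.72, adjusted p = 0.0137). The list of 9 haemostasis genes, which *Vwf* would join by function, also holds *Edn1*, *Ece1* and *Angpt2*, whose main roles are not in clotting. Of the 9, 8 were tested, none rose, 3 fell (37.5%, beside 7.03% of all loci) and the median was -0.54. With *Edn1* among the 3, these values describe the list as drawn up and not haemostasis alone. *Tfpi*, the inhibitor of the tissue factor pathway, stood at 7.48 and 12.9 FPKM (-0.71, limma adjusted p = 0.0283), *Edn1*, the vasoconstrictor endothelin-1, at 1.24 and 2.52 (-0.67, adjusted p = 0.0318), and *Procr*, the protein C receptor, at 13.6 and 21.2 (-0.61, adjusted p = 0.0257). All 9 genes of the list summed to 86.4 to 93.7 FPKM in TG and 113 to 126 in WT.

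Genes of fat capillaries (8 of 9 tested, median -0.25) and of veins and arteries (8 of 10 tested, median -0.03) held no call. Of 7 lymphatic genes, 4 were tested and 1 was called. *Mmrn1*, a multimerin of lymphatic endothelium, stood at 0.564 FPKM in TG and 1.95 in WT (log2 fold change -0.91, limma adjusted p = 0.00457). It passed the filter only through WT, where it is higher, so neither its call nor the list's median speaks for the list. Of 11 pericyte and smooth muscle genes, all tested, 1 rose, *Kcnj8*, a potassium channel of pericytes (8.86 against 5.95 FPKM, 0.51, limma adjusted p = 0.0184), none fell and the median was -0.11. That 1 call is 9.09% of the list, beside 11.6% of all loci. Their sum was lowest in TG replicate 1, at 224 FPKM, with the other 5 mice between 248 and 330. A large part of that gap is *Acta2*, at 29.9 FPKM in TG replicate 1 and 64.1 to 119 in the other mice. *Myh11*, *Cnn1* and *Tagln* were also lowest in TG replicate 1, but *Rgs5*, *Cspg4* and *Kcnj8* were highest there. The sum thus does not speak for the whole list, and these genes were singled out after their values were seen.

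**Figure D4:**
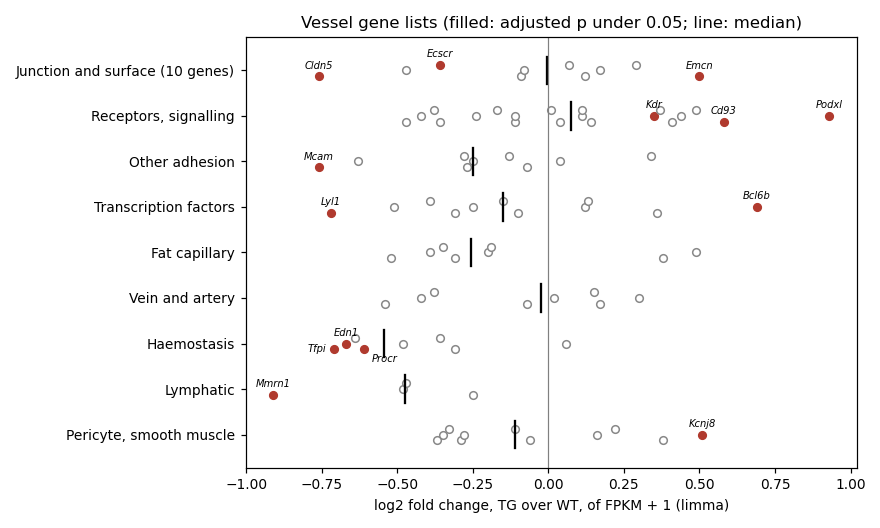
log2 fold change of TG over WT (horizontal axis) of the tested genes in the 10-gene set and in 8 other vessel lists (rows), 1 point per gene, filled and named where the limma adjusted p is under 0.05, with the median of each list as a vertical line. The 10 genes spread to both sides of 0, and 3 filled points of the receptor list lie to the right. The 3 filled points of the haemostasis list, the vasoconstrictor gene *Edn1* among them, lie to the left.

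The tested loci most alike to the mean of the 10 genes over the 6 libraries were *Tgfb1i1* (Pearson's r = 0.997), *Myl9* (0.992), *Myh11* (0.982), *Gna14* (0.982) and *Lama3* (0.979), picked from all tested loci for that likeness. *Gna14* passed the filter only through WT, at 0.542, 1.01 and 1.12 FPKM in TG and 1.33, 1.05 and 1.16 in WT. *Myl9* and *Myh11* encode a light and a heavy chain of smooth muscle myosin. *Myh11* measured 3.7, 8.04 and 10.1 FPKM in TG and 11, 7.07 and 8.59 FPKM in WT. All 5 loci share both ends of the mean of the 10 genes, its lowest point in TG replicate 1 (mean log2(FPKM + 1) 4.12) and its highest in WT replicate 1 (4.34), with the other 4 mice at 4.27 to 4.30. The summed epithelial markers share both ends too, at 88.8 FPKM in TG replicate 1 and 210 in WT replicate 1. The pattern is thus not particular to vessel genes.

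**Figure D5:**
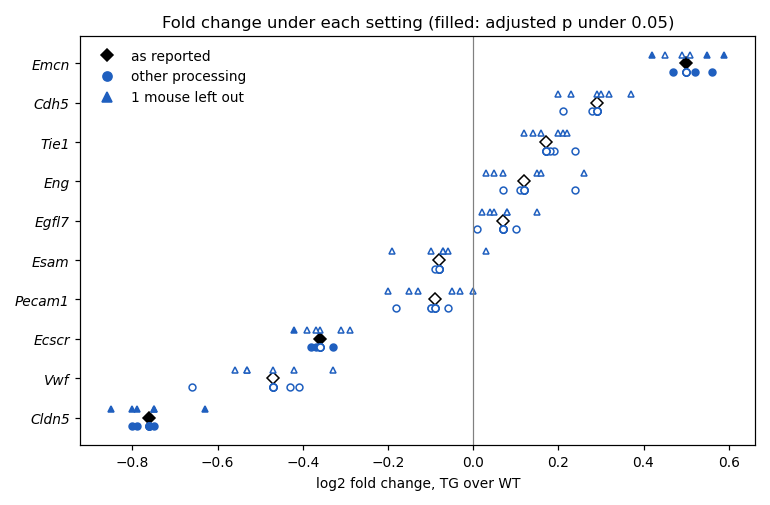
log2 fold change of TG over WT (horizontal axis) of each gene as reported (diamonds), under other processing (circles) and with 1 mouse left out (triangles), filled where the limma adjusted p is under 0.05. *Cldn5* is filled under every setting shown, *Emcn* in 10 of 14 alternatives and *Ecscr* in 7 of 14, and the values of *Pecam1* and *Esam* reach 0 or cross it.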

How the data were processed

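The authors sequenced TruSeq v2 libraries, which keep no strand, from 1 end over 100 bases, aligned the reads to mm10 and deposited FPKM values per gene and mouse. The submitters' processing notes name CASAVA 1.8.2, TopHat2 2.0.9, Bowtie2 2.1.0 and Cufflinks 2.2.1. The annotation and the options are not given in the sources used here. No counts were used and no count test was run.

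A locus entered the test when its mean FPKM in TG or in WT exceeded 1. log2(FPKM + 1) was fitted on genotype alone with limma 3.58.1 in R 4.3.3 (lmFit, trended eBayes, two-sided p, Benjamini-Hochberg). The deposited files do not give depth, so precision rests on the spread between the 3 mice of a group. Gene overlaps come from GENCODE of the same build, sequences from RefSeq.

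All 10 members are named. Other lists are given by counts, median and at most 4 called genes with the largest change, and 5 loci by likeness to the members' mean. Genes named outside this rule are marked as such. The members, the lists, the pair of *Vwf* and *Emcn* and the alternatives were chosen with earlier results of these data known. The alternatives are pseudocount, filters, scaling, weights, thresholds, reference list, leave-one-out and replicate block. Where other lists' symbols had several rows, the row of highest mean was used.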

Additional observations from a re-analysis of the deposited data

How the results depend on the processing

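Over 14 alternative fits the direction held for 8 of the 10 genes. *Pecam1* went from -0.09 to 0.00 without TG replicate 1 (leave-one-out range -0.20 to 0.00) and *Esam* from -0.08 to 0.03 without WT replicate 1 (-0.19 to 0.03). The call of *Emcn* was lost with the replicate number as a block (0.50, limma adjusted p = 0.0585), with a leave-one-out range of 0.42 to 0.59. That of *Ecscr* was lost without a filter on low values (-0.36, limma adjusted p = 0.0569) and with the block (-0.36, adjusted p = 0.0532), with a leave-one-out range of -0.42 to -0.29. The cause was not tested. Genes called higher numbered 0 with the block, at adjusted p under 0.01 and with a 2-fold minimum, and 0 to 1 in the leave-one-out fits. Genes called lower numbered 1 without the filter, with the block and at adjusted p under 0.01, 0 with the 2-fold minimum and 1 to 2 in the leave-one-out fits. Over all loci 569 were higher and 199 lower at adjusted p under 0.01, 413 and 204 with the 2-fold minimum, and 780 to 1295 and 329 to 906 in the leave-one-out fits, beside 1352 and 822 as reported. Samples with the same replicate number did not deviate together (correlations 0.0129, 0.0344 and 0.0701), and no sample correlated best with its own number. The numbers were thus not taken as pairs, and a pairing by litter or batch was not tested. With the block 1230 loci were higher and 656 lower. With the receptor list as reference the within-library ratios were 0.42 for *Emcn*, -0.44 for *Ecscr*, 0.09 for *Tie1*, 0.03 for *Eng* and -0.01 for *Egfl7*, and with a pseudocount of 0.1 they were -0.65 for *Vwf* and -1.18 for *Vwf* to *Emcn*. Calls higher in TG were 62.2% of all calls, and 54.6% after quantile normalization.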

Other observations

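Junction proteins are also made by epithelium, of which iWAT can hold ducts. Of 9 epithelial markers, 8 had a row and were tested, none was called and all 8 had a log2 fold change below 0, with a median of -0.34 and a sum of 88.8 to 181 FPKM in TG against 134 to 210 in WT. The junction partners shared with other cells had 4 of 8 tested genes above and 4 below 0, with a median of -0.03. Their sum, 340 to 365 FPKM in TG and 319 to 329 in WT, differs through *Ctnna1*, the partner called. The genes that follow were named after their values were seen, and neither passed the threshold. *Tjp1*, the scaffold ZO-1 that claudins bind, measured 12.5, 11 and 12.5 FPKM in TG and 15, 13 and 15.7 in WT (log2 fold change -0.26, limma adjusted p = 0.107). *F11r*, the membrane adhesion molecule JAM-A, lay the other way, at 32.3, 23.3 and 26.1 FPKM in TG and 22.2, 21.3 and 19.5 in WT (log2 fold change 0.35, limma adjusted p = 0.0935). In both the genotypes did not overlap.

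*Selp*, P-selectin, which endothelium stores with von Willebrand factor, stayed under the filter and was not tested. It measured 0.388, 0.424 and 0.38 FPKM in TG and 0.869, 0.964 and 0.818 in WT. The groups did not overlap, as for *Vwf*, and the gene was likewise singled out after its values were seen.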
